A study of Homo sapiens with 9 samples.

Results

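The genes described here encode the proteins of the mitochondrial ribosome. They were taken as the protein-coding genes whose symbol begins with MRPL or MRPS followed by a number and whose mean over the 9 libraries was at least 1 CPM (reads of a gene scaled to a common library size). Of 62710 genes in the table, 78 matched by symbol and 76 passed the minimum, and all 76 were among the 23075 genes with enough reads to be tested.

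Polyadenylated RNA was sequenced from wild-type H9, an established line of human embryonic stem cells, during conversion to early neuroepithelium. All cultures spent 72 h in mTeSR1, a pluripotency medium, on Matrigel-coated silicone (PDMS) plates, and then 48 h in N2B27 medium with SB431542 and LDN, inhibitors of TGF-beta and BMP receptors whose joint use is called dual SMAD inhibition. In the last 24 h, with both inhibitors still present, the plate was left flat for 3 libraries, bent to a concave shape for 3 and to a convex shape for 3. The flat cultures therefore carry the same line, medium and inhibitors, and differ only in that no curvature was applied. The labels number the libraries of each shape 1 to 3, and nothing says that they came from separate cultures, so a p-value here covers no more than the spread among these libraries.

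Mitochondria make a small set of respiratory chain subunits on ribosomes of their own, from mRNAs transcribed from mitochondrial DNA. The ribosomal RNAs come from that DNA too, but every protein of the mitochondrial ribosome is made in the cytosol from a nuclear gene and imported. Some of these proteins have bacterial counterparts and others are additions found only in mitochondria, and the names do not always give the subunit: MRPS30 and MRPS18A, for instance, sit in the large subunit. Without this ribosome the respiratory chain cannot be completed.

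The libraries held 49420082 to 64763412 counts. The library flat 2 stood apart for short transcripts, and the 3 libraries numbered 3 stood apart in the levels of cell type markers. In the latter the summed level of 5 pluripotency markers was 1684 to 1832 CPM against 710 to 983 CPM in the other 6, and that of 7 neuroepithelial markers was 861 to 1037 CPM against 1298 to 1498 CPM. Within those lists NANOG was at or near 0 in all libraries, at most 0.475 CPM, and PAX6 averaged 3.26 CPM. The neuroepithelial sum was mostly SOX2, at a mean of 682 CPM. Of its 7 genes 4 were lower in number 3 at an edgeR adjusted p under 0.05: SOX2, PAX6, SIX3 and CDH2. OTX2, SOX1 and LHX2 were not, with log2 differences of 0.06, 0.12 and -0.60. Of 6 mesoderm and endoderm markers 1, FOXA2, averaged at least 1 CPM. Their sum was 7.25 to 12.2 CPM in the libraries numbered 3 against 0.803 to 1.70 CPM elsewhere. Most of that was FOXA2, at 5.13 to 10.5 CPM against 0.0589 to 0.659 CPM. TBXT was at 1.16 to 1.61 CPM against 0.521 to 0.986 CPM, and MIXL1 had a log2 difference of -0.11. EOMES, SOX17 and GATA6 were at or near 0 in all libraries, at most 0.211 CPM. Among markers of other cell types, KRT18 and COL1A1 were called higher in number 3, with log2 differences of 0.93 and 0.80. FOXD3, at most 0.810 CPM, was also called higher. SOX10 and PECAM1 were called lower, with -0.63 and -1.54, and KRT8 was not called, with 0.44. TFAP2A, GATA3 and PTPRC were at most 0.510 CPM. In bulk RNA, fewer cells of a type and less RNA per cell cannot be told apart.

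All but 2 of the 78 genes were clearly present. The members' mean level ran from 4.24 to 129.9 CPM with a median of 39.9 CPM, and together they took 0.288% to 0.464% of a library's counts. Transcripts were 518 to 8251 nt long, with a median of 1378.5 nt, so levels of different genes are given as CPM per kilobase of transcript. On that scale the median was 28.7 and the range 2.28 to 93.8, which is 41.2-fold. The highest was MRPL51 (ENSG00000111639, chr12:6491886-6493841, GRCh38, minus strand), a mitochondria-specific protein of the large subunit, at 93.8 CPM per kb. MRPL32, whose product is trimmed by the mitochondrial m-AAA protease before it joins the large subunit, had 86.4 CPM per kb. MRPS6, a small subunit protein with a bacterial counterpart, had 82.9 CPM per kb, and 31.9% of its exon bases are shared with other genes on the same strand. In CPM without the division by length, the highest member was MRPS27, an RNA-binding protein of the small subunit, at 129.9 CPM, which is 46.7 CPM per kb.

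The classes overlapped widely. The 29 large subunit proteins with bacterial counterparts had a median of 35.4 CPM per kb, the 20 mitochondria-specific large subunit proteins 27.2, the 15 small subunit proteins with bacterial counterparts 24.5 and the 10 mitochondria-specific small subunit proteins 26.3. MRPL55 and MRPS36 stand in none of these class lists. MRPS36, now known as an adaptor subunit of the alpha-ketoglutarate dehydrogenase complex, had 11.1 CPM per kb. The 3 proteins of the stalk that recruits translation factors differed among themselves: MRPL11 had 45.8 CPM per kb, MRPL10 42.5 and MRPL12 12.1. Among the paralogs MRPS18A, MRPS18B and MRPS18C, which occupy 3 different places in the ribosome, the levels were 18.1, 28.4 and 6.01 CPM per kb.

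The lowest levels lay mostly in genes that share exon bases with a neighbour on the same strand. Of the 78 genes 6 share at least 50% of their exon bases in this way, and their median was 4.37 CPM with a maximum of 12.4 CPM. The 67 genes that share under 5% had a median of 41.8 CPM, and the 5 in between, MRPS6 and MRPL28 among them, 58.6 CPM. The 6 are MRPS24, MRPL46, MRPL12, MRPL38, MRPS28 and MRPL53. MRPL53 (chr2:74471958-74473322) had 0 counts in every library, and 52.3% of its exon bases lie in CCDC142, which averaged 13.1 CPM. MRPS24 (chr7:43866558-43869893) had 32 to 63 counts in a library and a mean of 0.838 CPM, with 85.7% of its exon bases inside the readthrough gene URGCP-MRPS24, itself at 0 CPM. These 2 genes lie just outside the minimum, and the lowest just inside it were MRPL23, a protein of the exit tunnel, at 4.24 CPM and MRPL38 at 4.30 CPM. Counters usually drop a read that falls in 2 genes, and whether that lowered these values was not tested. In 20 genes the shared part grows by over 5% of exon bases once genes on the opposite strand are counted, and 35 members have a named pseudogene. The strand setting of the counting is not given in the sources used here, so their values are less certain.

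**Figure D1:**
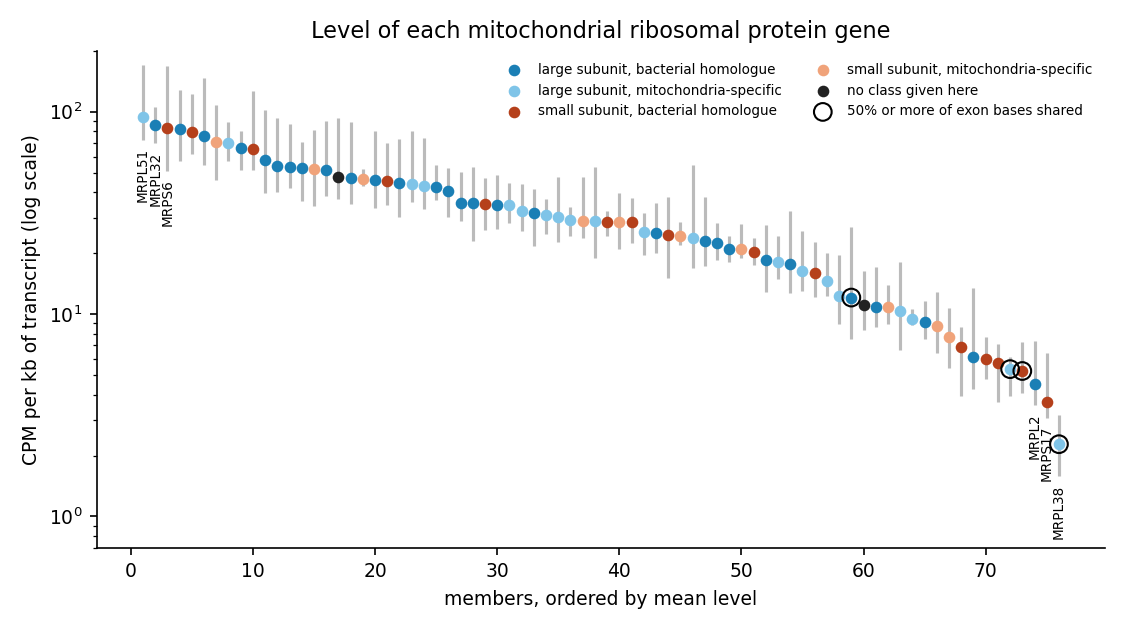
Mean level of each of the 76 members in CPM per kb of transcript (log axis), ordered from highest to lowest and coloured by subunit and class, with a grey line from the lowest to the highest of the 9 libraries. Levels fall from 93.8 for MRPL51 to 2.28 for MRPL38, and circled genes, which share at least 50% of their exon bases with a same-strand gene, lie in the lower part.

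The promoters of the genes matched by symbol were read for features that the choice of genes did not use. RefSeq start sites (GRCh38.p14) with 250 bases before and 50 after were at hand for 69 of the 78 genes, and both strands were searched for 4 motifs. The YY1 motif AAGATGGC, bound by a factor long tied to nuclear genes for mitochondrial proteins, was in 20 of these 69 genes, or 29.0%, against 3.03% of all 27305 promoters and 4.65% of the 12411 promoters of tested protein-coding genes. The ETS motif CCGGAAGT was in 11 of the 69, 15.9%, against 4.44% and 7.60%. The NRF1 motif GCATGCGC was in 6, 8.70%, against 3.27% and 4.83%, and the E-box CACGTG, bound by MYC and related factors, was also in 6, against 7.43% and 9.52% of the same promoters. At least 1 of the 4 motifs was in 30, 43.5%, against 16.2% and 23.3%. The 69 include MRPS24, with the YY1 motif, and MRPL53, with the ETS motif, which lie below the CPM minimum.

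In 16 of the 69 genes the YY1 motif was found as spelled, at 17 sites, and in 12 genes, MRPS24 among them, the ATG inside it is the annotated start codon of the gene. The motif and the beginning of the protein therefore occupy the same bases in those 12. The windows below show 8 of these, from both subunits, with the motif in capitals and at most 11 bases on each side.
MRPS7, chr17:75261887-75261916, plus strand: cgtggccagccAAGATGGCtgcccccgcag
MRPS10, chr6:42217834-42217863, minus strand: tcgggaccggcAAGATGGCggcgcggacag
MRPS18A, chr6:43687764-43687793, minus strand: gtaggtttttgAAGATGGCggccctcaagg
MRPS18B, chr6:30617852-30617881, plus strand: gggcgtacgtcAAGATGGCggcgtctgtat
MRPS27, chr5:72320206-72320235, minus strand: tggtacgctccAAGATGGCtgcctccatag
MRPS30, chr5:44808949-44808978, plus strand: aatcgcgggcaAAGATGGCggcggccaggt
MRPL45, chr17:38297170-38297199, plus strand: tttgcgggaacAAGATGGCagcccccatac
MRPL50, chr9:101398577-101398606, minus strand: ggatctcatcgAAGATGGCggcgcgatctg

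Other members carry the other motifs without it. The windows below give 1 ETS match as spelled, 1 in the reverse complement, and 1 NRF1 match, again with the motif in capitals. MRPL3 is shown because it is among the members whose level differed between replicate numbers, described further on. A match is a run of letters and does not show binding.
MRPL3, ETS, chr3:131502985-131503014, minus strand: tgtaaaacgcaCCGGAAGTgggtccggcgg
MRPS22, ETS reversed, chr3:139343987-139344016, plus strand: ccctcccaaccACTTCCGGcgcaagtggct
MRPL17, NRF1 as spelled, chr11:6683401-6683430, minus strand: ggctctgatgcGCATGCGCaaacacgttca

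By library, the members moved largely together, and flat 2 was the highest. Their summed level was 3384, 4832 and 3585 CPM in flat 1, 2 and 3, then 2728, 2896 and 3680 CPM in concave 1, 2 and 3, and 2805, 3096 and 3207 CPM in convex 1, 2 and 3. Each member's log2 level was also set against its own mean over the 9 libraries. The median of this deviation over members was 0.03, 0.56 and 0.13 in the flat libraries, -0.28, -0.22 and 0.14 in the concave ones and -0.26, -0.08 and -0.02 in the convex ones. Flat 2 was the highest library for 60 of 76 members, and concave 1 the lowest for 37. The same libraries were highest and lowest for 27.7% and 11.8% of all genes tested.

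**Figure D2:**
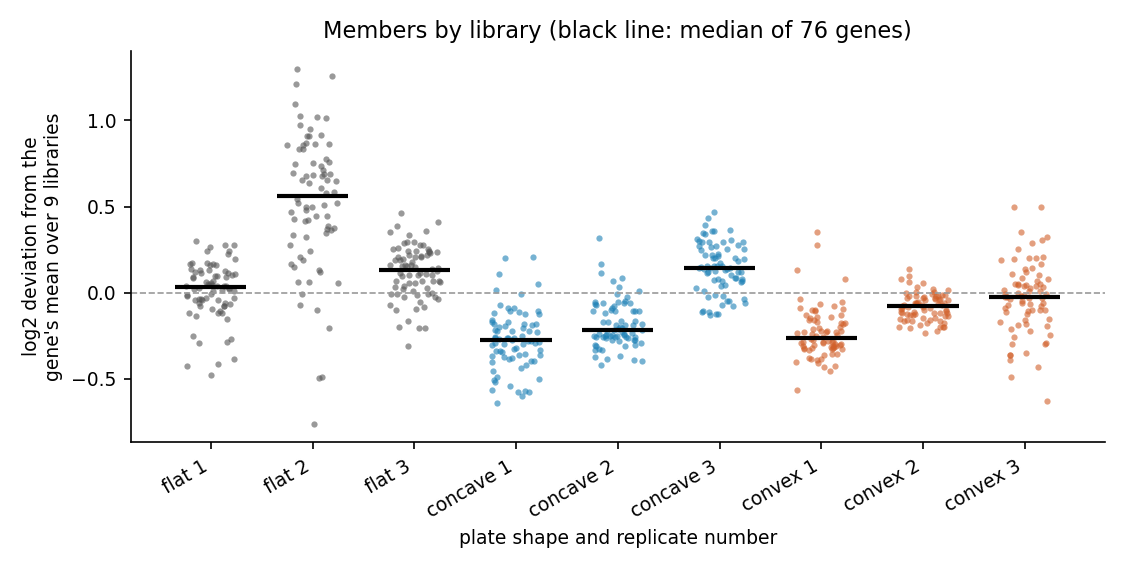
Log2 deviation of each member from its own mean over the 9 libraries, by plate shape and replicate number, with 1 point per gene and a black line at the median of the 76. Flat 2 has a median of 0.56 and the widest spread, and concave 1, concave 2 and convex 1 have the lowest medians.

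The question the series poses is whether bending the plate changed gene expression, and no member passed the test for it. In edgeR's quasi-likelihood test with Benjamini-Hochberg adjustment over 23075 genes, 0 members had an adjusted p under 0.05 in concave against flat, in convex against flat, in concave against convex or in the F test among the 3 shapes, and 0% of all genes did in each. The smallest adjusted p of a member was 0.841, 0.513, 1.00 and 0.971 in that order. DESeq2 and limma voom also called 0 members in each pair, beside 0 of all genes except 1 by DESeq2 in convex against flat. At an unadjusted p under 0.05 they had 15 and 13 members in concave against flat, beside 5.31% and 4.03% of all genes, and 24 and 15 in convex against flat, beside 11.2% and 9.46%.

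The members nonetheless lay to one side in both comparisons with flat, which share the 3 flat libraries. In concave against flat 71 of 76 log2 fold changes were below 0, with a median of -0.37 (22.8% lower) against 0.01 over all genes tested. In convex against flat 71 of 76 were below 0, with a median of -0.39 (23.5% lower) against 0.01. At an unadjusted p under 0.05, 16 members were lower in concave (2.56% of all genes were) and 2 higher (1.98%), and 22 were lower in convex (5.22%) and 2 higher (4.03%). Without flat 2 the medians were -0.17 and -0.21, that is 11.1% and 13.6% lower. After a correction for transcript length they were -0.24 and -0.25. Without concave 3 the median for concave against flat was -0.56.

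Counts of members whose libraries did not overlap gave a like picture. All 3 concave libraries were below all 3 flat ones for 8 members (2.96% of all genes tested) and above them for 1, MRPS25 (3.78%). All 3 convex libraries were below all flat ones for 32 members (7.76%) and above for 3, MRPL38, MRPS25 and MRPS5 (8.91%). Concave and convex differed little: the median of concave against convex was 0.03, and at an unadjusted p under 0.05 there were 0 members lower (0.0997%) and 0 higher (0.182%). The intervals of plus or minus 2 standard errors for that difference reached from -0.82 to 0.71 over all members, so changes of moderate size between the 2 curved shapes were not detectable here. In the F test among shapes 11 members had an unadjusted p under 0.05, beside 3.89% of all genes.

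By replicate number, the sign held for convex but not for concave. Convex was lower than flat of the same number for 68, 70 and 69 of 76 members at numbers 1, 2 and 3, with medians of -0.28, -0.69 and -0.17. Concave was lower for 69, 70 and 31 members, with medians of -0.34, -0.80 and 0.04. Over all genes tested these shares were between 48.7% and 51.4%. Number 3 concave and flat libraries thus did not differ in the members' median by more than 0.04.

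MRPL28 (ENSG00000086504, chr16:366969-371289, minus strand), a large subunit protein with a bacterial counterpart, had the smallest p among the lower members in both comparisons. It was at 97.4, 161 and 80.4 CPM in flat 1, 2 and 3, at 69.1, 60.1 and 77.8 CPM in concave and at 69.9, 70.0 and 60.4 CPM in convex. Every curved library was below every flat one, but flat 2 was far above the other flat libraries. The log2 fold change was -0.71 (SE 0.24, edgeR adjusted p = 0.841) in concave and -0.76 (SE 0.24, adjusted p = 0.513) in convex.

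MRPL14 (chr6:44113454-44127457), which lies at the face where the subunits meet, was at 48.7, 84.9 and 46.4 CPM on flat plates, at 35.4, 33.4 and 45.6 CPM on concave and at 36.3, 39.4 and 35.3 CPM on convex. Here too the groups did not overlap, although concave 3 came within 1 CPM of flat 3. MRPL51, the most abundant member per length, was at 132, 209 and 111 CPM on flat, 92.7, 91.8 and 124 CPM on concave and 89.8, 101 and 90.6 CPM on convex plates. Its concave libraries overlapped the flat ones and its convex libraries did not, with a log2 fold change of -0.68 (SE 0.23) in convex. MRPL41 (chr9:137551199-137552555), a mitochondria-specific large subunit protein, was at 30.8, 69.2 and 27.6 CPM on flat, 24.1, 21.4 and 26.0 CPM on concave and 24.0, 25.8 and 22.0 CPM on convex plates. Without overlap, its distance to flat 1 and flat 3 was small and its log2 fold changes of -0.83 in both comparisons came largely with flat 2.

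The stalk proteins differed in how much flat 2 stood out. MRPL12, which also binds the mitochondrial RNA polymerase, was at 8.83, 27.6 and 14.8 CPM on flat, 7.71, 10.1 and 11.2 CPM on concave and 9.18, 10.7 and 11.4 CPM on convex plates, and 68.2% of its exon bases are shared. MRPL11 was at 75.4, 129 and 72.7 CPM on flat plates, against 56.2 to 81.7 CPM on concave and 53.7 to 65.9 CPM on convex. MRPL10, the base of the stalk, was at 88.0, 94.2 and 72.6 CPM on flat plates and 63.1 to 76.1 CPM on the curved ones. MRPL10 thus showed no such excess in flat 2.

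A few members went the other way. MRPS25 (chr3:15042460-15065335, minus strand), a mitochondria-specific small subunit protein with a long transcript of 4586 nt, was at 26.1, 24.7 and 32.5 CPM on flat plates, at 37.3, 38.9 and 34.3 CPM on concave and at 42.0, 33.7 and 49.0 CPM on convex. All 6 curved libraries lay above the 3 flat ones, and the log2 fold changes were 0.41 (SE 0.18, edgeR adjusted p = 0.841) and 0.58 (SE 0.18, adjusted p = 0.513). MRPS5, a small subunit protein near the mRNA entry, was at 9.22, 6.53 and 10.3 CPM on flat, 12.8, 13.8 and 10.3 CPM on concave and 14.2, 11.6 and 13.7 CPM on convex plates. Flat 2 was its lowest library, where for most members it was the highest. MRPL38 was at 3.45, 2.99 and 4.29 CPM on flat and 3.93 to 5.98 CPM on curved plates, with 67.8% of its exon bases shared.

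Other members with known roles varied in how far they lay from 0. MRPS27 was at 140, 145 and 129 CPM on flat plates and 120 to 139 CPM on curved ones, with log2 fold changes of -0.13 and -0.14 (SE 0.14 each). MRPS22 and MRPS16, in which mutations cause respiratory chain deficiency, had -0.03 and -0.17 in concave and -0.09 and -0.16 in convex against flat. MRPL44, related to ribonuclease III, had -0.19 and -0.17. MRPL58, a peptidyl-tRNA hydrolase that rescues stalled ribosomes and is also a ribosomal subunit, had -0.47 and -0.45. MRPS7 had -0.48 in each, and MRPS36 -0.40 and -0.50. The last 3 lay further from 0 than the members' medians. No gene among these was called.

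Transcript length tracked the differences with flat. The Spearman correlation of log2 fold change with transcript length over the 76 members was 0.55 in each of concave and convex against flat, beside 0.25 and 0.28 over 21940 genes with a length. These are correlations over genes that share the same libraries, given as a description. For the 19 shortest members, of 518 to 1019 nt, the medians were -0.47 in concave and -0.52 in convex. For the 19 longest, of 1845 to 8251 nt, they were -0.21 and -0.20. In flat 2 itself the deviation had a median of 0.83 in the shortest and 0.24 in the longest group, and its correlation with length was -0.54, against -0.33 over all genes. Without flat 2 the correlations of the fold changes were 0.29 and 0.40.

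Single genes at the ends of the length range show the same. MRPL33, at 518 nt the shortest, was at 34.6, 52.5 and 23.2 CPM on flat plates against 20.5 to 28.6 CPM on curved ones. MRPL54, at 626 nt, was at 17.5, 33.2 and 19.5 CPM on flat plates. MRPL42, at 8251 nt the longest, was at 80.0, 81.0 and 87.1 CPM on flat plates and 72.5 to 80.5 CPM on curved ones. Flat 2 was thus above the other flat libraries by a wide margin for both short transcripts and not for the long one. An exception was MRPS23, at 5621 nt, with 49.5, 72.4 and 57.5 CPM on flat plates.

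**Figure D3:**
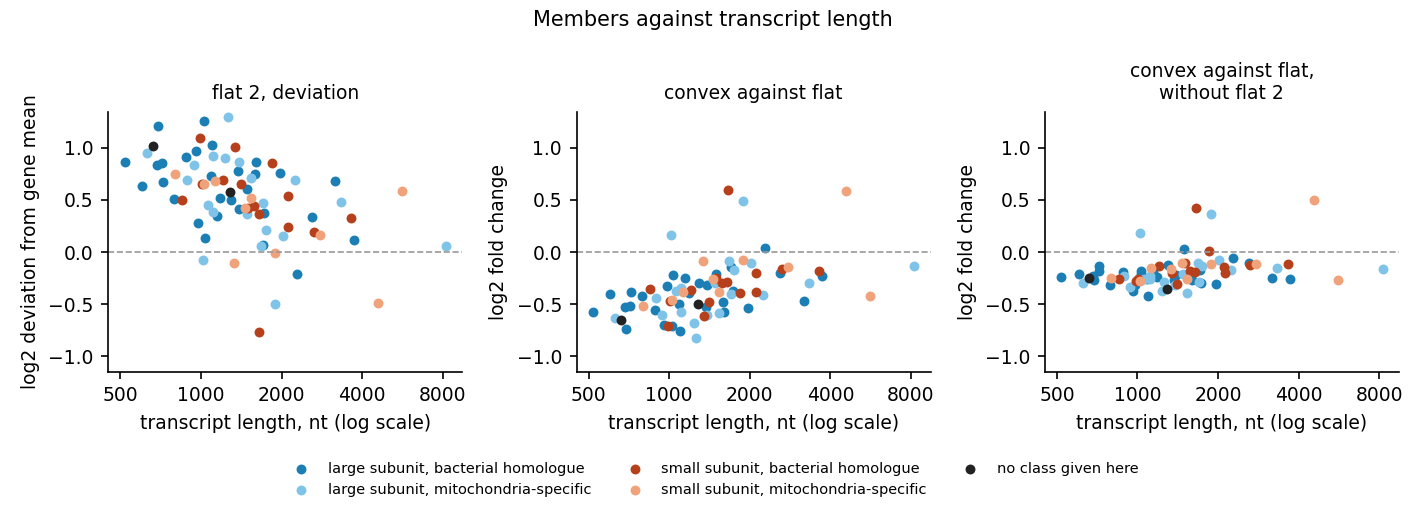
Members against transcript length (log axis), with 1 point per gene coloured by subunit and class: the log2 deviation in flat 2, the log2 fold change of convex against flat, and the same fold change without flat 2. Short transcripts are highest in flat 2 and lowest in the fold change, and leaving out flat 2 moves the members' median from -0.39 to -0.21.

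Other gene lists were read beside the members in the same way. In flat 2 the median deviation was 0.92 for 84 nuclear-encoded respiratory chain genes and 1.04 for 83 cytosolic ribosomal protein genes, above the members' 0.56. It was 0.17 for 28 assembly factors of the mitochondrial ribosome and -0.60 for the 13 mRNAs encoded by mitochondrial DNA. It was -0.07 for 20 genes listed as mitochondrial aminoacyl-tRNA synthetases, among which QRSL1 is not a synthetase. The median in concave against flat was -0.51 for the respiratory chain, -0.62 for cytosolic ribosomal proteins, -0.14 for assembly factors, -0.01 for the synthetases and 0.38 for mitochondrially encoded mRNAs. In convex against flat the same lists had -0.58, -0.75, -0.09, -0.02 and 0.39. None of these lists had a gene called in any pair of shapes. The 5 mitochondrial ribosomal proteins that carry other symbols had -0.59 and -0.66. Without flat 2 the lists lay closer together: in concave against flat the median was -0.17 for the members, -0.19 for the respiratory chain, -0.20 for cytosolic ribosomal proteins, -0.10 for assembly factors, 0.17 for mitochondrially encoded mRNAs and -0.23 for the 5 proteins with other symbols. In convex against flat these were -0.21, -0.28, -0.33, -0.05, 0.28 and -0.32.

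**Figure D4:**
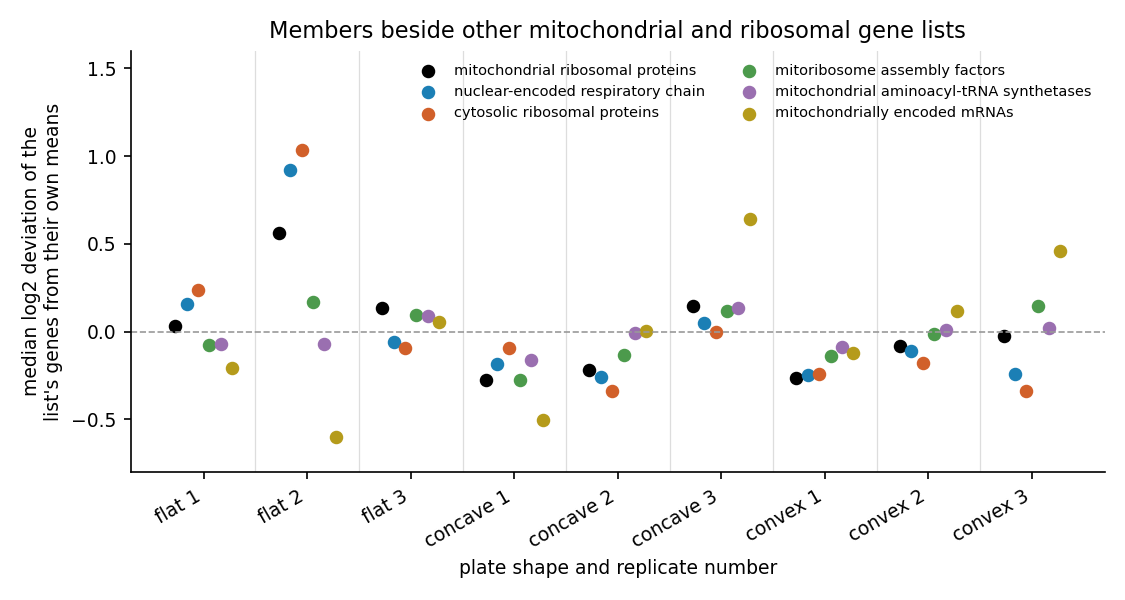
Median log2 deviation from each gene's own mean over 9 libraries, for the members and 5 other lists, by library. In flat 2 the members (0.56) lie between the 2 lists above them (0.92 and 1.04) and the mitochondrially encoded mRNAs (-0.60), and those mRNAs are highest in concave 3.

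Between replicate numbers a few members did pass the test. The libraries numbered 3 had been set apart from the others after they were seen to differ, so no p allows for that choice. In edgeR with shape as a term, 6 members were called higher in number 3 than in numbers 1 and 2, which is 7.89% of members beside 8.79% of all genes. In the other direction 0 were called, beside 9.14%. The share called higher is thus near that of all genes. The median over members was 0.13, against 0.01 over all genes tested. Above 0 were 58 of 76 members and 11739 of 23075 genes. The members' median was -0.02 without concave 3, 0.03 with library size only and 0.06 without concave 2. It was 0.20 without flat 2, 0.22 after the length correction and 0.23 without flat 3. For 4 members, MRPL3, MRPS22, MRPS30 and MRPS35, all 3 libraries numbered 3 lay above the other 6 (11.7% of all genes), and for 0 they lay below (12.5%). In the F test among the 3 numbers, 2 members were called, MRPL15 and MRPS35, beside 11.8% of all genes.

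MRPS35 (ENSG00000061794, chr12:27710773-27756295, plus strand), a mitochondria-specific small subunit protein, had the smallest p. It was at 26.3, 25.7 and 25.7 CPM in flat 3, concave 3 and convex 3. The other libraries were at 16.9 and 20.0 CPM on flat, 17.8 and 17.5 CPM on concave and 17.2 and 17.3 CPM on convex plates. The groups did not overlap, the means were 25.9 ± 0.37 CPM (SD, n = 3) and 17.8 ± 1.13 CPM (SD, n = 6), and the log2 difference was 0.54 (SE 0.11, edgeR adjusted p = 0.0100).

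MRPL15 (ENSG00000137547, chr8:54135210-54147901, plus strand), a core protein of the large subunit, was at 80.8, 80.9 and 73.4 CPM in flat 3, concave 3 and convex 3. It was at 48.0 and 74.6 CPM in flat 1 and 2, 41.3 and 48.3 CPM in concave and 44.8 and 52.6 CPM in convex. Flat 2 overlapped the libraries numbered 3, and the log2 difference was 0.63 (SE 0.13, edgeR adjusted p = 0.0101). MRPL18, a protein of the central protuberance of the large subunit, was at 51.7, 47.8 and 44.4 CPM in number 3 and at 29.5 to 47.1 CPM in the other 6, the highest of them again flat 2.

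MRPS30 was at 62.1, 61.9 and 61.3 CPM in number 3 and 41.8 to 53.4 CPM elsewhere, without overlap. MRPL3, a protein close to the catalytic centre, was at 137, 137 and 127 CPM in number 3 and 88.2 to 116 CPM elsewhere, also without overlap. Their log2 differences were 0.40 (SE 0.10, edgeR adjusted p = 0.0250) and 0.39 (SE 0.11, adjusted p = 0.0327). MRPS11, on the platform of the small subunit, was at 25.8, 25.1 and 23.6 CPM in number 3 against 13.5 to 25.6 CPM. MRPS30 holds the YY1 motif at its start codon and MRPL3 the ETS motif, as printed above. MRPL18, MRPS11 and MRPS35 held none of the motifs searched, and no promoter was at hand for MRPL15. At least 1 motif was in 43.5% of the 69 genes.

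Which members were called depended on single libraries. The count was 0 without convex 3, when 4.54% of all genes were called. It was 1 without concave 1, concave 3, convex 1 or convex 2, beside 8.59%, 11.8%, 8.57% and 10.1% of all genes. Without flat 1 it was 2 (13.0% of all genes), and without flat 3 it was 8 (13.2%). Without concave 2 it was 4 (19.8%), 3 higher and MRPS6 lower. It was 16 without flat 2 and 17 after the correction for transcript length, when 23.5% and 24.7% of all genes were called. With all libraries the share of all genes was 17.9%. The log2 differences of the 6 stayed above 0 in all 17 settings tried, from 0.26 for MRPS11 to 0.73 for MRPL15. The 6 were picked as higher in these same libraries, most of which every setting reuses, so that sign was nearly fixed beforehand. Pluripotency and neuroepithelial marker sums differ between these libraries as given above, and their part in the members' difference was not tested.

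**Figure D5:**
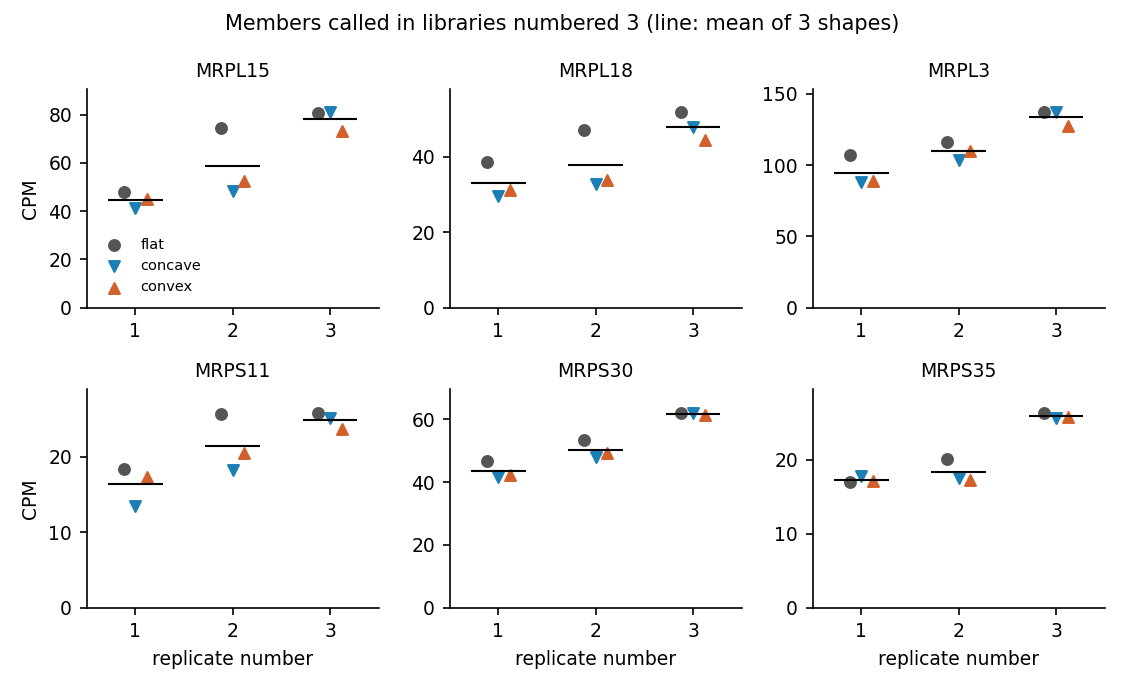
CPM of the 6 members called in number 3 against numbers 1 and 2, by replicate number, with a marker per plate shape and a line at the mean of the 3 shapes. MRPS35, MRPS30 and MRPL3 have every library numbered 3 above the other 6, while flat 2 lies within the range of number 3 for MRPL15, MRPL18 and MRPS11.

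With all libraries no member was called lower, and MRPS6 and MRPL33 had the lowest log2 differences. MRPS6 was at 67.6, 73.9 and 50.3 CPM in number 3 and 68.7 to 166 CPM elsewhere, with a log2 difference of -0.45 (SE 0.21, edgeR adjusted p = 0.169). Without concave 2 it was called lower, at -0.62 (SE 0.17). MRPL33 had -0.42 (SE 0.18, adjusted p = 0.149). MRPS12, at the decoding centre, had a log2 difference of 0.45, MRPS34 0.40, MRPS2 0.32 and MRPS22 0.23. None of these was called, although the values of MRPS12 and MRPS34 were as large as those of some called members. For MRPS22 all 3 libraries numbered 3, at 38.0, 35.6 and 33.9 CPM, lay above the other 6, at 29.3 to 32.3 CPM.

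Numbers 2 and 1 differed in no member at the threshold, with 0 called in edgeR and 0% of all genes. By DESeq2 and voom 0 members were called as well, beside 154 and 0 of 23075 genes. At an unadjusted p under 0.05, 10 members were higher in number 2 (3.88% of all genes) and 0 lower (4.66%). The members' median was 0.27, against -0.02 over all genes tested. Without flat 2 the members' median was 0.10. MRPL1, of the stalk on the exit side of the large subunit, had the smallest p among the higher members, at 19.2 CPM in flat 1 and 40.9 in flat 2, 19.6 and 25.4 in concave, and 20.8 and 26.3 in convex 1 and 2. Number 2 was above number 1 in all 3 shapes.

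Genes that work with the mitochondrial ribosome also held calls in number 3, all of them higher, where 8.79% of all genes were called higher. Of 28 assembly factors 4 were called: MRM1, which methylates the large ribosomal RNA, was at 11.2 to 12.1 CPM in number 3 and 4.28 to 9.60 CPM elsewhere, and C1QBP, MPV17L2 and MTG1 had log2 differences of 0.67, 0.74 and 0.49. Of 17 translation factors and activators 2 were called, PDF, the mitochondrial peptide deformylase, and GFM1, an elongation factor, with 0.67 and 0.56. Of 20 genes listed as aminoacyl-tRNA synthetases 2 were called, QRSL1 and SARS2, with 0.44 and 0.46. QRSL1 is not itself a synthetase, and SARS2 shares exon bases with MRPS12 on the opposite strand. Of 9 genes of mitochondrial transcription and DNA maintenance TWNK and TFB2M were called, with 0.51 and 0.46. The counts of 2 of 17 and 2 of 20 are near the share of all genes, and no list was tested as a set.

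Of 9 regulators of mitochondrial biogenesis 3 were called, MYC with 1.24, PPRC1 with 0.83 and PPARGC1B with 0.88. MYC was at 15.5 to 26.6 CPM in the libraries numbered 3 and 5.91 to 13.4 CPM in the other 6. Of 13 mitochondrially encoded mRNAs 4 were called, MT-ND2, MT-ND1, MT-ATP6 and MT-ND4, with log2 differences of 1.04, 0.86, 0.61 and 0.55. All 13 were above 0. The median deviation of the 13 was 0.06, 0.64 and 0.46 in flat 3, concave 3 and convex 3, and 0.12 in convex 2. MT-ND1 was at 4331 to 7940 CPM in number 3 and 2583 to 4960 CPM elsewhere. MT-ND4 was at 8324 to 12543 CPM against 5054 to 8425 CPM. Both overlapped, while MT-ND2 and MT-ATP6 did not. Of 84 nuclear-encoded respiratory chain genes 0 were called higher and 1 lower, ATP5MC2, with a list median of -0.10. Of 83 cytosolic ribosomal protein genes 0 were called higher and 1 lower, RPL3L, with a list median of -0.21. These counts were read beside 8.79% of all genes called higher and 9.14% lower.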

How the data were processed

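The authors deposited raw counts for each gene. The submitters' processing notes name HISAT2, featureCounts and GRCh38, and the labels' protocols describe stranded poly-A libraries. Tool versions, the annotation used and the strand setting: not given in the sources used here. Each of the 9 columns was matched to its library by shape and number, and the number of per-sample columns left unused was 0. Of 62710 identifiers 62639 had a symbol in the table of gene names and 58274 were in GENCODE v29, which gave gene types, coordinates, exon overlap and transcript length (median of the principal transcripts). Replicates differed by more than sampling noise (chi-square per degree of freedom 19.7 to 284.6), so none was merged.

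edgeR 4.0.16 in R 4.3.3 was run on the counts (filterByExpr, TMM scaling, robust quasi-likelihood fit over all 9 libraries), with 1 coefficient per shape, or shape and replicate number for comparisons of numbers. The common biological coefficient of variation was 0.329 and 0.217. All tests were two-sided, adjusted by Benjamini-Hochberg over 23075 genes within each of 7 comparisons, and called at an adjusted p under 0.05. CPM uses TMM-scaled library sizes, and log2 deviations a prior count of 2. Intervals are plus or minus 2 standard errors. The procedure was run on simulated data, which took the spread of the replicate number fit for the shape comparison too. The outcome is not given here, and no result above rests on it.

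Members named are those with a fixed role, the 3 highest and lowest per length, the 3 longest and shortest, the 3 with the smallest p per direction in each pair of shapes and in number 2 against 1, up to 5 called per direction in number 3, and those beside the CPM minimum. From other lists up to 3 genes with the smallest p were named where any was called. Not every gene so selected is described. MRPS27, MRPL45, MRPL46, MRPL50, MRPL55, MRPL17, MRPS10, MT-ND4 and MTG1 were added after their values were seen. Members, lists and comparisons were chosen with earlier results of these data known.

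Same-numbered libraries were checked for pairing by correlating deviations from the group means over all genes. For numbers 1, 2 and 3 r was 0.379, 0.0211 and 0.338 between concave and flat, 0.372, 0.397 and 0.620 between convex and flat, and 0.579, 0.290 and 0.612 for convex with concave. Taking 0.1 as the minimum, the numbers paired convex with flat and with concave, not concave with flat. Alternatives were other scalings and filters, DESeq2 1.42.0, limma 3.58.1 (voom), the pair's 6 libraries alone, the replicate block, a lowess correction for transcript length (span 0.3), a minimum of 10 CPM and each library left out. Leaving out flat 2 and concave 1 together, and keeping members that share under 5% of exon bases, were chosen after seeing the data.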

Additional observations from a re-analysis of the deposited data

How the results depend on the processing

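The count of members called in each pair of shapes and in the F test among shapes was 0 in all alternatives run. With the replicate block 0 members were called, so the pairing changed no call. The medians were -0.36 and -0.38 for concave and convex against flat and 0.03 between the curved shapes. At an unadjusted p under 0.05 in edgeR, the block gave 30 members in concave against flat (8.87% of all genes), and 18 without it (4.54%). In convex against flat it gave 41 (18.3%), and 24 without it (9.25%). The smallest edgeR adjusted p of a member with the block was 0.506 and 0.264 in these comparisons. The median of concave against flat was -0.058 without flat 2 and concave 1 together, and that of number 2 against number 1 was 0.013 in the same setting. The cause was not tested.

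Calls between replicate numbers were less stable. In number 3 against numbers 1 and 2, 6 members were called, beside 17.9% of all genes. The count was 3 with library size only (18.6%), 3 with no filter beyond 1 count (11.1%) and 17 with the transcript length correction (24.7%). With each library left out it ran from 0 without convex 3 (4.54%) to 16 without flat 2 (23.5%). In the F test among numbers 2 members were called, beside 11.8% of all genes. The count was 8 with DESeq2 and 4 with voom, beside 4465 and 2922 of 23075 genes. It was 4 with DESeq2 size factors, 1 with library size only and 9 with no filter. With at least 1 CPM in 3 libraries it was 4, and with the length correction 15. Leaving out each library gave from 0 to 15. For the settings after DESeq2 and voom the shares of all genes are not given here. The median of number 3 against numbers 1 and 2 was -0.02 without concave 3 and between 0.03 and 0.23 in the other settings. With 3 libraries a shape, the median standard error of a member's log2 fold change was 0.22 in both comparisons with flat.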
